A study of Mus musculus with 12 samples.

Results

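The cytosolic ribosomal proteins are the structural proteins of the small (Rps) and large (Rpl) subunits of the ribosome outside mitochondria. Their genes were taken by symbol, as protein-coding genes named Rpl or Rps with a number, together with Rplp0, Rplp1, Rplp2 and Rpsa and without the Rps6k kinases. The rule found 83 of the 55536 genes in the count table, 32 of the small and 51 of the large subunit. Of these, 6 are paralogs of another member (Rpl3l, Rpl7l1, Rpl10l, Rpl22l1, Rpl39l and Rps27l). A further 6 matching symbols were not protein coding and were left out, and Rack1 and Fau, which also encode ribosome components, fall outside the symbol rule and are described with the translation factors.

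RNA was sequenced from 12 mouse libraries of a model of clear cell sarcoma, a soft tissue tumour driven by the fusion of EWSR1 to ATF1. The 5 translocation tumours carried HprtCre (Cre recombinase at the Hprt locus) with Ewsr1-loxP and Atf1-loxP, so that the fusion comes from joining the mouse genes. The 6 Rosa26 tumours carried Rosa26-LSL-EWSR1-ATF1, a fusion transgene at the Rosa26 locus behind a Cre-removable stop, and their label names no Cre. The reference tissue was 1 WT skeletal muscle library. No tumour received a drug, and the labels give neither age nor the number of animals, so that p-values here refer to differences among libraries, which can be technical in part. The titles of translocation tumours 2 and 5 share a number, and so do those of translocation tumour 1 and the muscle library. By Xist and Y-linked genes, translocation tumour 2 read as female and translocation tumour 5 as male.

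Each ribosome holds about equal numbers of most of these proteins, and cells adjust their mRNAs together. Many of the mRNAs begin with a terminal oligopyrimidine tract, through which the mTOR pathway and the RNA-binding protein LARP1 control their translation. Several proteins have further roles: the stalk proteins Rplp0, Rplp1 and Rplp2 recruit elongation factors, and Rpl5 and Rpl11 form a particle with 5S rRNA that restrains the p53 inhibitor MDM2. Striated muscle is known for Rpl3l, which takes the place of Rpl3 in part of its ribosomes.

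Library totals were 2.96 to 21.2 M counts in translocation tumours, 6.82 to 21.5 M in Rosa26 tumours and 25.0 M in muscle. Translocation tumour 2 and Rosa26 tumour 4 were the shallowest, and 3 rows that hold ribosomal RNA sequence took 37.8% and 30.0% of their counts, against 0.758% to 7.38% elsewhere. Translocation tumour 5 stood apart in the ribosomal protein genes themselves. The edgeR counts of calls and the medians of the main comparisons are therefore given with and without it. So is a single gene where leaving it out changed its call or moved its value by over 1.5 times. Most alternative settings, and the contrasts of a single tumour group with muscle, were run only with it. Skeletal muscle markers (16 genes) summed to 25.2 to 7617 CPM (counts per M counts of the library, after scaling) in translocation tumours, 18.9 to 85190 CPM in Rosa26 tumours and 582322 CPM in muscle, with the high tumour values in Rosa26 tumours 1 and 3 and translocation tumour 2. Melanocyte markers (8 genes), which mark clear cell sarcoma in patients, summed to 464 CPM in translocation tumour 5, 9.70 to 40.3 CPM in the other translocation tumours and 15.7 to 54.9 CPM in Rosa26 tumours, and Mlana had no count in any tumour.

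Ribosomal protein mRNAs took a larger share of the counts in most translocation tumours than in most Rosa26 tumours. The 83 genes together held 3.34%, 1.75%, 2.32%, 2.61% and 7.34% of all counts in translocation tumours 1 to 5. In Rosa26 tumours 1 to 6 they held 1.45%, 2.26%, 1.36%, 0.721%, 1.52% and 1.55%, and in muscle 1.61%. The means were 3.47% ± 2.24 (SD, n = 5) in translocation tumours and 1.48% ± 0.492 (SD, n = 6) in Rosa26 tumours, and 2.51% ± 0.663 (SD, n = 4) in translocation tumours without tumour 5. The groups overlapped, since Rosa26 tumour 2 exceeded translocation tumour 2, and tumour 5 held more than any other library. With the ribosomal RNA rows taken out of the total, the means were 3.81% ± 2.18 and 1.59% ± 0.461. These are bulk samples, in which more cells with many ribosomes and more mRNA per cell cannot be told apart.

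Of the 83 genes, 80 had at least 10 counts in every library and 74 at least 100, while Rpl10l, a testis paralog of Rpl10, had no count in any. The median log2 CPM of the 80 genes was 8.20, 7.44, 7.51, 7.79 and 9.48 in translocation tumours 1 to 5 (CPM here and below is scaled over the 12 libraries by TMM, the trimmed mean of M values). It was 7.06, 7.76, 6.90, 6.16, 7.03 and 6.93 in Rosa26 tumours 1 to 6, and 8.64 in muscle. Translocation tumour 5 had the highest level of all 11 tumours in each of the 80 genes tested between genotypes, a position it held in 27.8% of all genes tested. Rosa26 tumour 2 was the highest of its group in 71 of them and Rosa26 tumour 4 the lowest tumour in 62.

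**Figure D1:**
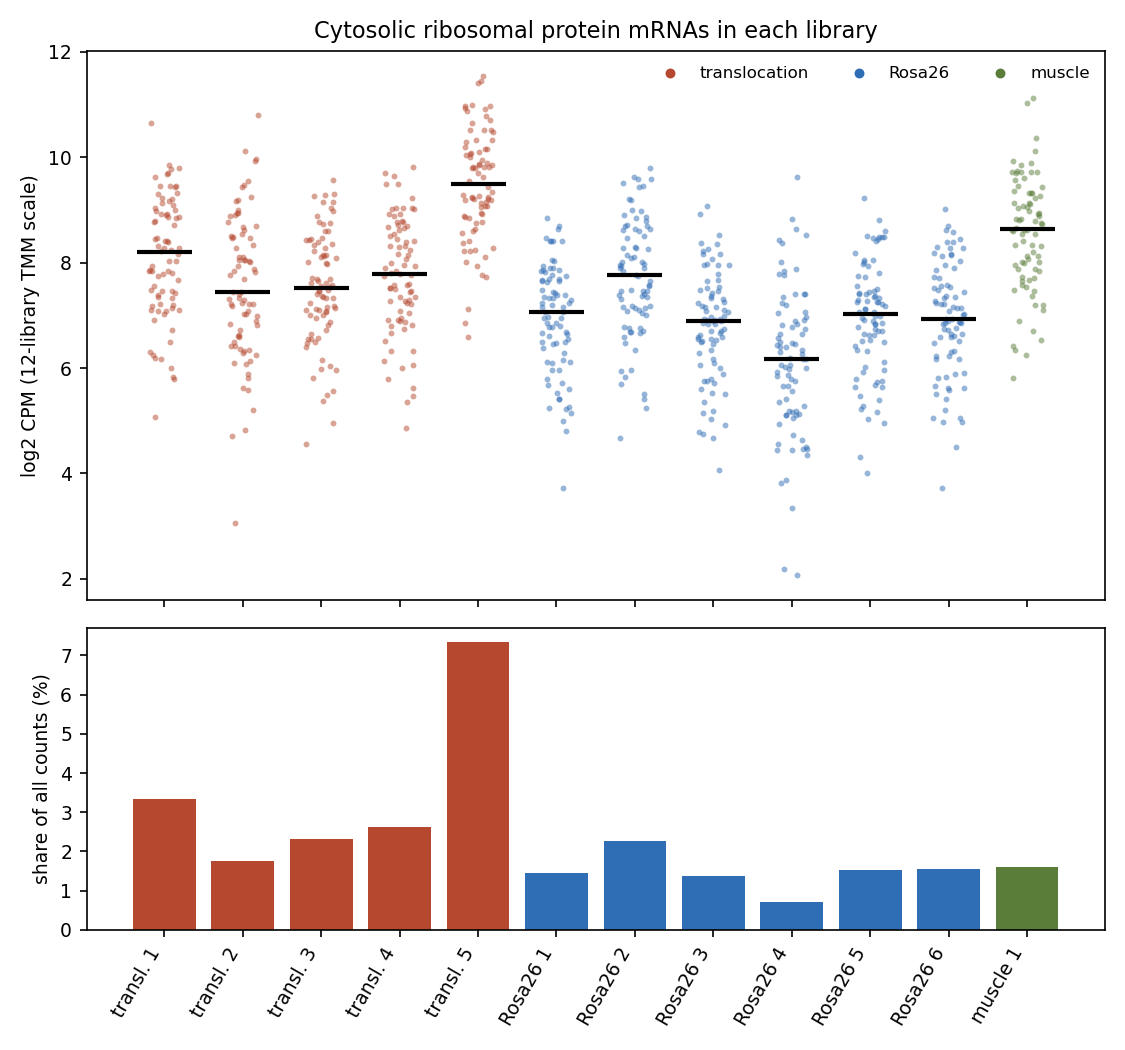
Upper panel, log2 CPM of each of the 80 ribosomal protein genes with at least 10 counts in every library (points) and their median (black line), by library. Lower panel, the percent of all counts in the 83 genes. Translocation tumour 5 stands highest in both, at a median of 9.48 and a share of 7.34%.

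Per kb of transcript, a scale on which genes can be compared, the most abundant members over the 11 tumours were Rps14 at 1378, Rpl41 at 1334 and Rpl32 at 1008 CPM per kb. Rps14 is a small subunit protein of the platform, Rpl41 is the smallest ribosomal protein, and Rpl32 belongs to the large subunit. Without translocation tumour 5, where Rpl32 had 2779 CPM, the highest were Rps14 at 1194, Rpl41 at 1140.0 and Rplp1 at 782 CPM per kb, and Rpl32 had 571 CPM per kb. Rpl10l, Rpl3l and Rpl39l were the least abundant at 0, 3.33 and 8.20 CPM per kb. Among genes that are not paralogs the lowest was Rpl24, a large subunit protein, at 37.6 CPM per kb. This spread between mRNAs whose proteins are used in about equal numbers also depends on the transcript length assumed, here the shortest principal coding transcript.

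The comparison of translocation with Rosa26 tumours asks whether the way the fusion is made goes with a different transcript level. All 80 genes tested had a positive log2 fold change, translocation over Rosa26, against 53.2% of all 17021 genes tested. The median was 1.38 for the ribosomal protein genes and 0.07 for all genes, and without translocation tumour 5 it was 0.84 and -0.0027. Yet only 5 of the 80 rose past the threshold (edgeR quasi-likelihood test, Benjamini-Hochberg adjusted p under 0.05 over all genes), where 1.14% of all genes were called higher, and none fell, where 1.56% of all genes were called lower. At an unadjusted p under 0.05, 72 of the 80 were higher and none lower, where 14.3% of all genes were higher and 10.4% lower. Without translocation tumour 5, 79 of 81 members tested were positive, where 8688 of all 17433 genes were. At an unadjusted edgeR p under 0.05, 52 of these 81 were then higher and none lower, where 1941 of all genes were higher and 2095 lower. Scaled on the ribosomal protein genes themselves, 39 of the 80 were positive, the median was -0.0069 and none was called in either direction. That scaling sets the members' centre near 0 by construction, so it asks only for change relative to the other members. It puts the median of all genes at -1.16.

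The count of calls depended on the scaling, the libraries and the test. Scaled by total counts it was 0, where 0.4% of all genes were called higher. It was also 0 (0.231% of all genes) with translocation tumours 2 and 5, and Rosa26 tumours 5 and 6 of consecutive titles, each summed to 1 library. Translocation tumours 2 and 5 read as female and male and held 2.96 and 21.2 M counts, so their sum was mostly tumour 5. Without translocation tumour 5 the count of calls was 2, where 1.68% of all genes were called higher. Without translocation tumours 2 and 5 and Rosa26 tumour 4 it was 0 (1.57% of all genes) with a median of 0.79. More members and more of all genes were called by the DESeq2 Wald test, at 56 (7.26% of all genes), and by limma voom with quality weights, at 34 (7.36%). The voom fit also gives each library its own weight, and its median was 0.92. A sex covariate gave 77 (9.11%). By Xist and Y-linked genes, translocation tumour 5 was the only male of its group, while Rosa26 tumours 2, 3, 5 and 6 were male, so that among translocation tumours sex and tumour 5 cannot be told apart. Erythroid markers summed to 146 to 11073 CPM in translocation tumours and 2.45 to 988 CPM in Rosa26 tumours. Fibroblast markers summed to 207 to 21969 CPM and 5376 to 98363 CPM, with the lowest in translocation tumour 5. Their part in the result was not tested.

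**Figure D2:**
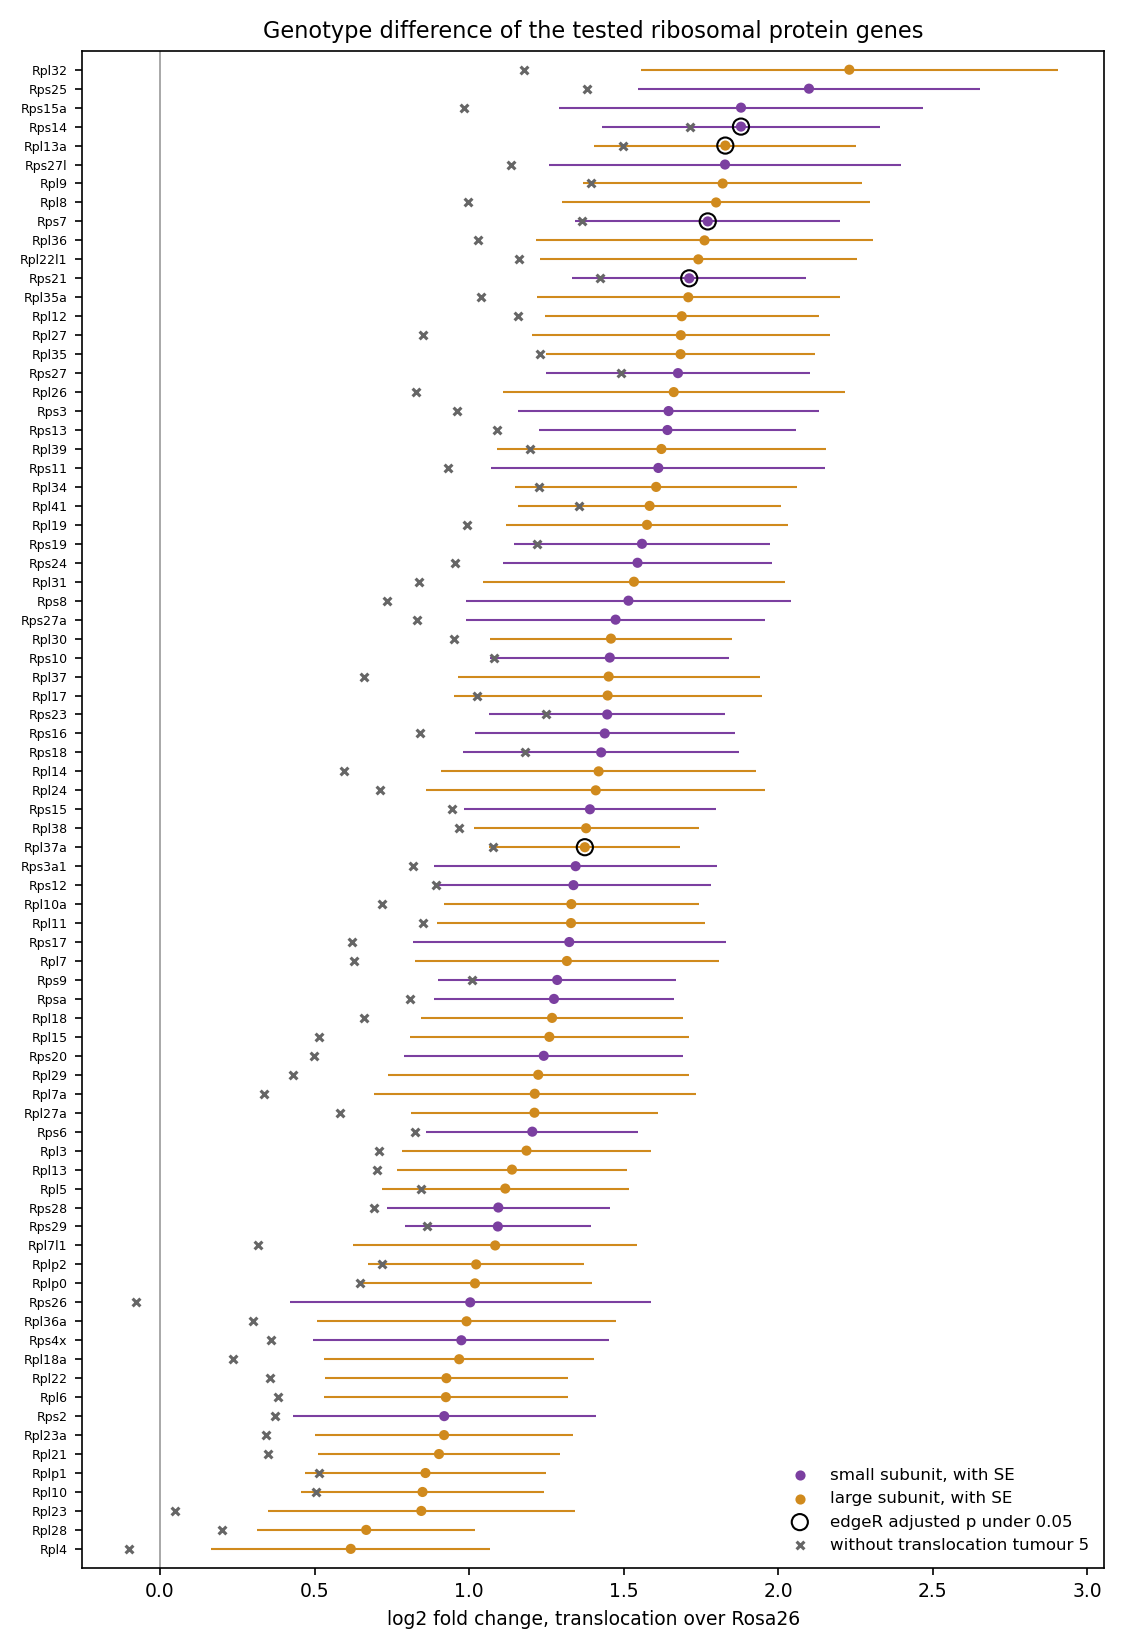
Log2 fold change, translocation over Rosa26, of the tested ribosomal protein genes with its SE, coloured by subunit (1 of the 80 is not drawn). Rings mark the 5 genes past the adjusted p of 0.05 and crosses the value without translocation tumour 5. Every filled point lies above 0, from 0.62 to 2.23, and most crosses lie to the left of their point. On the scale of the members themselves, which sets their centre near 0, 39 of the 80 are positive.

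The called genes were Rps21, Rps14 and Rps7 of the small and Rpl37a and Rpl13a of the large subunit. Rps21 (ENSMUSG00000039001, chr2:180257377-180258445, mm10) had 461, 373, 255, 340.4 and 743 CPM in translocation tumours 1 to 5. In the 6 Rosa26 tumours it ran from 64.4 through a median of 128 to 239 CPM. The ranges did not overlap, and the lowest translocation tumour, 3, lay just above the highest Rosa26 tumour, 2. Its log2 fold change was 1.71 with an SE of 0.38 (edgeR adjusted p = 0.0390), and 1.43 without tumour 5 (edgeR adjusted p = 0.0427).

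Rpl37a (ENSMUSG00000046330, chr1:72711290-72713813), a zinc-binding protein of the large subunit, had 215, 169, 161, 183 and 388 CPM in translocation tumours 1 to 5. In Rosa26 tumours it ran from 67.0 through a median of 82.0 to 144 CPM, again without overlap. The log2 fold change was 1.37 with an SE of 0.31 (edgeR adjusted p = 0.0412), and 1.08 without tumour 5 (edgeR adjusted p = 0.0390). Rps21 and Rpl37a each kept their call in 5 of the 11 fits that left out 1 tumour, with edgeR adjusted p up to 0.119 and 0.122 in the others.

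Rpl13a (ENSMUSG00000074129, chr7:45125558-45128761), known in human cells for silencing inflammatory mRNAs once released from the ribosome, had 464, 511, 175, 239 and 791 CPM in translocation tumours 1 to 5. In Rosa26 tumours it ran from 88.7 through a median of 111 to 237 CPM, so that translocation tumour 3 lay inside the Rosa26 range. Its log2 fold change was 1.83 with an SE of 0.42 (edgeR adjusted p = 0.0443). Rps14, whose loss of 1 copy in human myelodysplasia impairs red cell formation, had 1606, 1782, 627, 832 and 1919 CPM in translocation tumours. In Rosa26 tumours it ran from 229.6 through a median of 307 to 793 CPM. The difference was 1.88 on the log2 scale with an SE of 0.45 (edgeR adjusted p = 0.0489).

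Rps7 (ENSMUSG00000061477, chr12:28630854-28635953), a small subunit protein that is mutated in some patients with Diamond-Blackfan anaemia, had 437, 576, 175, 256 and 943 CPM in translocation tumours. In Rosa26 tumours it ran from 118 through a median of 122 to 243 CPM. On the log2 scale the difference was 1.77 with an SE of 0.43 (edgeR adjusted p = 0.0498). Rps14, Rps7 and Rpl13a overlapped through the high Rosa26 tumour 2 and the low translocation tumour 3, each kept its call in 3 of the 11 fits, and none was called without tumour 5 (edgeR adjusted p 0.0541, 0.0572 and 0.0517).

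The promoters of these genes are shown because members that move together are often compared by promoter motif. RefSeq promoter windows (GRCm38.p6, 250 bases before to 50 after the start) were found for 63 of the 83 genes, 75 windows in all. CCGGAAG, a core that ETS factors such as GABPA bind, was in 27 of the 75 windows on either strand (36.0%), against 8.86% of all 32851 windows. CTTTCC, a pyrimidine-rich run, was in 37 of the 75 (49.3%), against 26.6% of all windows, and the matches of both motifs never overlapped in the members' windows. The 120 bases before the start follow, 5′ to 3′ on the gene's strand, with matches to either motif on either strand in capitals. Rps14 is not shown. The first is chr2:180257259-180257378 on the plus strand, the second chr12:28635954-28636073 on the minus strand, the third chr7:45128746-45128865 on the minus strand and the fourth chr1:72711140-72711259 on the plus strand.
Rps21: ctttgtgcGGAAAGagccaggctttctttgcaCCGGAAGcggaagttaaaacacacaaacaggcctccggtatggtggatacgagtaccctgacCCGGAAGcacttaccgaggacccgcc
Rps7: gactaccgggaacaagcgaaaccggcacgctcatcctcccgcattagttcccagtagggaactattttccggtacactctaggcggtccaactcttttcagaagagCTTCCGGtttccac
Rpl13a: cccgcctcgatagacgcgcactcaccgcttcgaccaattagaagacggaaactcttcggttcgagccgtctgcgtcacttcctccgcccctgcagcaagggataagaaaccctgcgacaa
Rpl37a: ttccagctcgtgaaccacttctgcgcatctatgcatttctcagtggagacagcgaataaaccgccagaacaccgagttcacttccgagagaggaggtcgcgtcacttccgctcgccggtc
In these stretches Rps21 held CCGGAAG 2 times and Rps7 held it 1 time, while Rpl13a and Rpl37a held neither motif. A match describes the letters, and says nothing of binding.

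By range, 6 of the 80 tested genes did not overlap between genotypes, each higher in translocation tumours (Rps21, Rpl37a, Rpl8, Rpl9, Rpl30 and Rpl39), where 2.20% of all genes did so. Rpl8, Rpl9, Rpl30 and Rpl39 are large subunit proteins, named here for that count, and their edgeR adjusted p-values were 0.0662, 0.0517, 0.0624 and 0.0972. The same 6 were apart without translocation tumour 5, where 3.04% of all genes were. Without Rosa26 tumour 2, 50 were apart, where 5% of all genes were.

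Among the stalk proteins, Rplp0 had 928, 585, 762, 905 and 1947 CPM in translocation tumours 1 to 5, and 392 to 882 CPM with a median of 457 in Rosa26 tumours. Its log2 fold change was 1.02 with an SE of 0.38 (edgeR adjusted p = 0.130). The log2 fold change was 0.86 for Rplp1 (edgeR adjusted p = 0.199) and 1.02 for Rplp2 (edgeR adjusted p = 0.106). None of the stalk genes passed, and all lay below the members' median of 1.38. Without tumour 5 the values were 0.65 for Rplp0, 0.51 for Rplp1 and 0.72 for Rplp2. The partners of 5S rRNA were like them. Rpl5 had 311, 491, 258, 304 and 690 CPM in translocation tumours and 125 to 421 CPM in Rosa26 tumours, a log2 fold change of 1.12 (edgeR adjusted p = 0.119). Rpl11 had 219, 230, 137, 174 and 557 CPM in translocation tumours and 65.3 to 228 CPM in Rosa26 tumours, a log2 fold change of 1.33 (edgeR adjusted p = 0.0951), or 0.85 without tumour 5.

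The X-linked members were Rpl10, which completes the peptidyl transferase centre, Rpl36a, Rpl39, which lines the exit tunnel, and Rps4x of the small subunit. Rpl39 had 347, 157, 151, 191 and 569 CPM in translocation tumours and 14.2 to 143 CPM in Rosa26 tumours, without overlap, and its log2 fold change was 1.62 (edgeR adjusted p = 0.0972). The log2 fold changes of Rpl10, Rpl36a and Rps4x were 0.85, 0.99 and 0.98 (edgeR adjusted p 0.205, 0.227 and 0.228), and 0.50, 0.30 and 0.36 without tumour 5. None of these genes passed the threshold.

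The paralogs differed in how far they followed their parents. Rpl22l1, which in other mouse tissues is held down by Rpl22, had 106, 47.7, 93.9, 101 and 299 CPM in translocation tumours, and 10.1 to 81.1 CPM with a median of 37.1 in Rosa26 tumours. Its log2 fold change was 1.74 with an SE of 0.51 (edgeR adjusted p = 0.0756), and that of Rpl22 was 0.93 with an SE of 0.39 (edgeR adjusted p = 0.172). Without tumour 5 they were 1.16 and 0.36. As a share of the counts of both genes, Rpl22l1 held 38.8%, 24.4%, 44.6%, 40.3% and 37.8% in translocation tumours 1 to 5. In Rosa26 tumours it held 26.8%, 31.5%, 23.3%, 12.4%, 25.3% and 23.7%, and in muscle 18.0%. The share was 37.2% ± 7.62 (SD, n = 5) in translocation tumours and 23.8% ± 6.33 (SD, n = 6) in Rosa26 tumours, and the lowest value of each group came from the library rich in ribosomal RNA rows. The difference in share was not tested.

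Rps27l, a p53 target in human and mouse cells, held 15.9% ± 7.30 of the counts of Rps27l and Rps27 in translocation tumours and 15.4% ± 4.55 in Rosa26 tumours (SD, n = 5 and 6), with 20.5% in muscle. Rpl7l1, which resembles a yeast ribosome assembly factor, held 10.3% ± 1.47 and 12.2% ± 1.03 of the counts of Rpl7l1 and Rpl7, with 5.58% in muscle. Neither paralog passed between genotypes (edgeR adjusted p 0.0851 for Rps27l and 0.170 for Rpl7l1). Rpl39l, a paralog of Rpl39 best known from male germ cells, was present in a few tumours only. It had 132, 0, 768, 1 and 0 counts in translocation tumours 1 to 5, 6, 0, 12, 8, 1 and 70 counts in Rosa26 tumours 1 to 6, and 1 count in muscle. In translocation tumour 3 it held 17.1% of the counts of both genes (exact 95% binomial interval 16.0% to 18.2%, counting error only) and in Rosa26 tumour 6 it held 4.41% (3.45% to 5.54%). It did not pass the filter for the genotype test.

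Once the level of each library was taken off, the members differed in how steady they were. The deviation of a gene is its log2 CPM minus the median of the 80 genes in that library, and its SD over the 11 tumours had a median of 0.361. Among the steadiest were the small subunit proteins Rps16 (SD 0.11), Rps24 (0.15) and Rps27a (0.21), the last made as a fusion to ubiquitin. Rps16 deviated by -1.10, -1.02, -1.04, -0.97 and -0.93 in translocation tumours, and by -1.30 to -0.96 in Rosa26 tumours. It stayed about as far below the median member in translocation tumour 5 as in the other translocation tumours.

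The most variable were Rps2 (SD 0.72), Rpl39 (0.69), Rps27l (0.66) and Rps14 (0.66). Rps2, a small subunit protein at the mRNA entry, deviated by 1.26, 2.49, 1.09, 0.91 and 1.51 in translocation tumours 1 to 5 and by 1.35, 1.83, 1.63, 3.45, 1.47 and 1.45 in Rosa26 tumours 1 to 6. The highest value of each group was in the library rich in ribosomal RNA rows. Those libraries, translocation tumour 2 and Rosa26 tumour 4, also had the widest spread over the 80 genes, with an SD of 1.38 and 1.42 against 1.04 to 1.15 in the other libraries. Rpl39 and Rps27l were lowest in Rosa26 tumour 4, at -2.34 and -3.98. Rps14 deviated by 3.36 in translocation tumour 2 and by 1.02 to 2.45 in the other tumours. The part of ribosomal RNA and depth in these deviations was not tested.

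**Figure D3:**
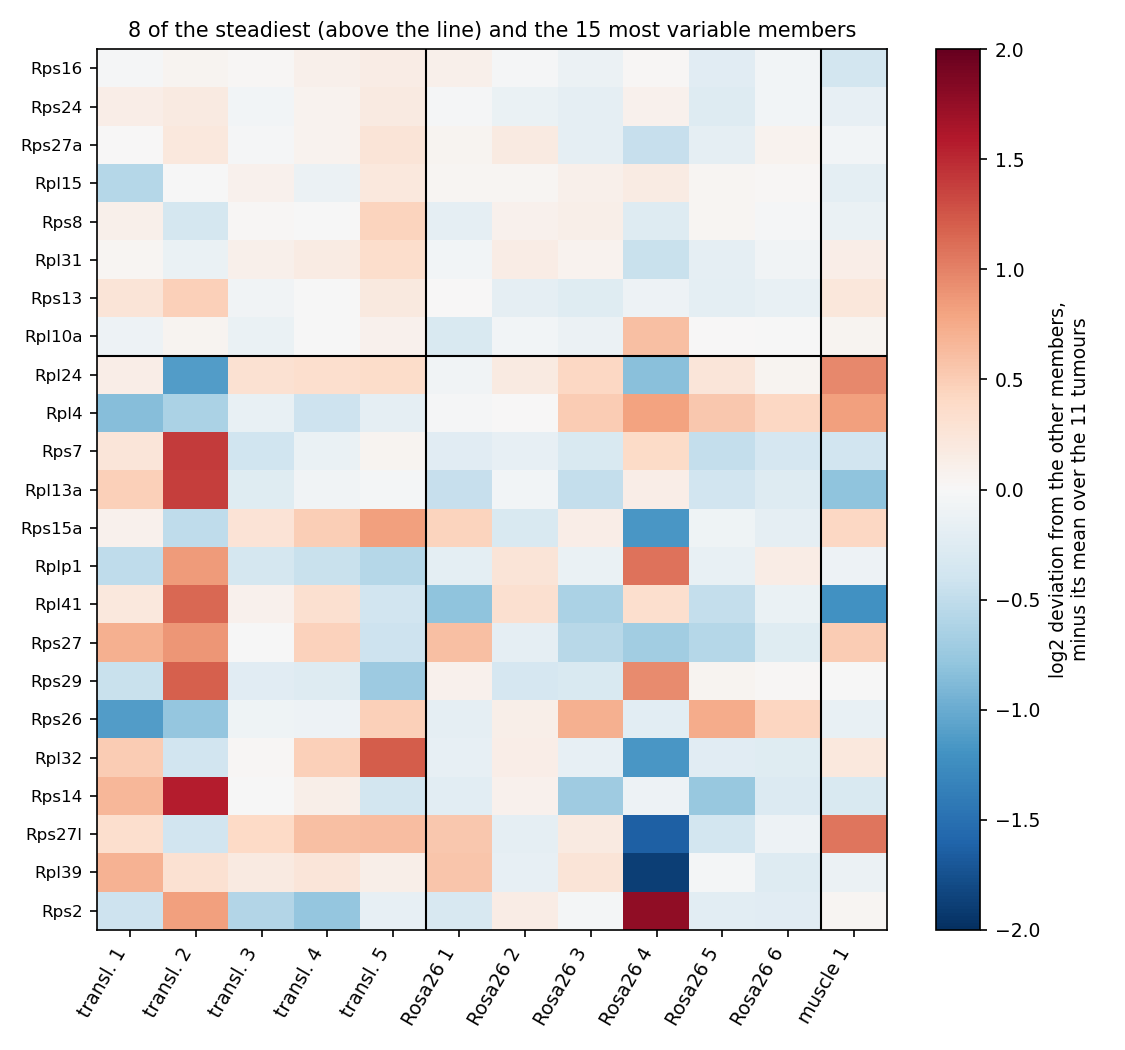
Log2 deviation of a gene from the median ribosomal protein gene of its library, minus its mean over the 11 tumours, for 8 of the steadiest genes (above the line) and the 15 most variable. The strongest colours are in translocation tumour 2 and Rosa26 tumour 4, where the SD over all 80 genes was 1.38 and 1.42.

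The comparison with muscle sets the mean of both tumour groups over 1 library, which was assumed to vary like the tumours, so differences rest on a single sample. Rpl3 and Rpl3l stood out. Rpl3l (ENSMUSG00000002500, chr17:24727820-24736143) had 1, 3, 3, 2 and 0 counts in translocation tumours 1 to 5, 797, 1, 48, 2, 3 and 4 counts in Rosa26 tumours 1 to 6, and 5368 counts in muscle. Rpl3 (ENSMUSG00000060036, chr15:80077791-80091868), which helps to shape the peptidyl transferase centre, went the other way. It had 628, 602, 435, 519 and 1606 CPM in translocation tumours, 246 to 581 CPM with a median of 309.9 in Rosa26 tumours, and 179 CPM in muscle.

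Rpl3l held 15.8% of the counts of both genes in Rosa26 tumour 1 (exact 95% binomial interval 14.8% to 16.8%), 0.683% in Rosa26 tumour 3 (0.504% to 0.905%) and at most 0.218% in each of the other tumours, against 74.5% in muscle (73.5% to 75.5%). Skeletal muscle markers summed to 85190 CPM in Rosa26 tumour 1, 7617 CPM in translocation tumour 2 and 4934 CPM in Rosa26 tumour 3, and to at most 686 CPM in the other tumours. The log2 fold change of Rpl3l, tumours over muscle, was -8.90 with an SE of 1.71 (edgeR adjusted p = 0.00438). It was called in all 11 edgeR fits that left out 1 tumour, but not by the DESeq2 Wald test. With Rosa26 tumours alone over muscle it missed the threshold at -6.00 (edgeR adjusted p = 0.0510). That of Rpl3 was 1.51 with an SE of 0.79 (edgeR adjusted p = 0.209). On the TMM scale, Rpl3 was the only member whose muscle level lay below that of every tumour, which 19.1% of all genes tested showed. Scaled by total counts it was called higher at 2.91 (edgeR adjusted p = 0.0450).

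**Figure D4:**
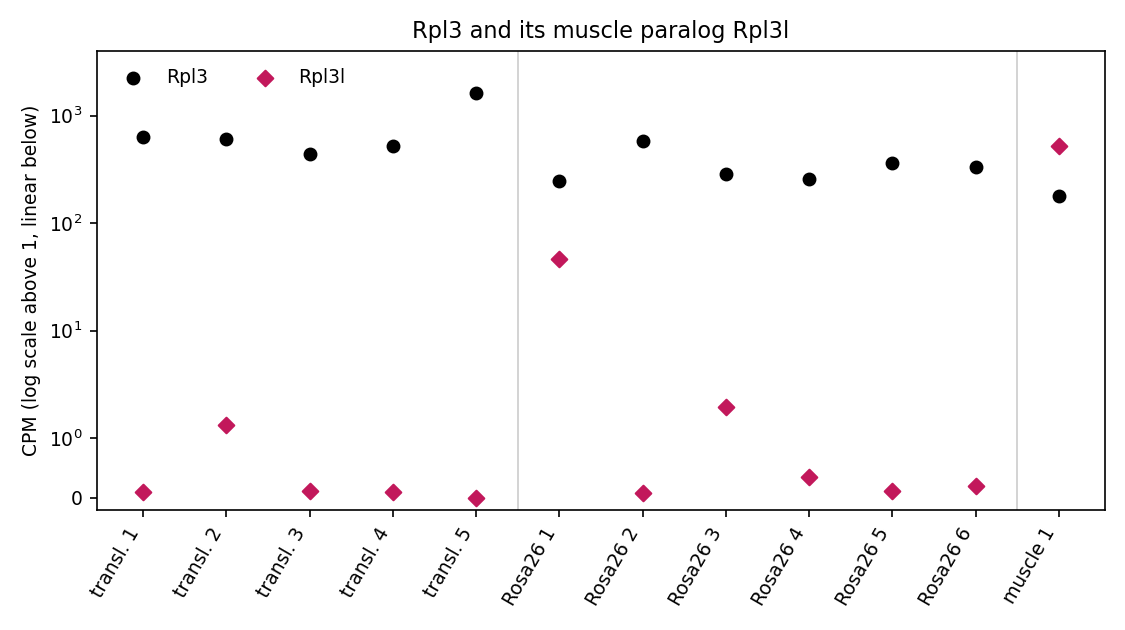
CPM of Rpl3 (circles) and Rpl3l (diamonds) in each library, on a scale that is logarithmic above 1 and linear below. Rpl3l lies above Rpl3 in muscle only, and among tumours is highest in Rosa26 tumour 1 at 46.1 CPM, where Rpl3 had 246 CPM.

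The other members were mostly lower in tumours than in muscle on the TMM scale. Of 82 genes tested, 78 had a negative log2 fold change, with a median of -0.93 against 0.70 over all 22184 genes. Scaled by total counts the members' median was 0.49 and that of all genes 2.10, so that the sign of the members' median turned while its distance from all genes stayed at -1.63 and -1.61. Past an adjusted p of 0.05 and a log2 fold change of 1 in size, 1 member was lower (Rpl3l), where 11.4% of all genes were, and none was higher, where 5.25% were. At an unadjusted p under 0.05, 13 of the 82 were lower and none higher, where 16.6% of all genes were lower and 15.2% higher. The DESeq2 Wald test called 3 lower and none higher, where 11.6% of all genes were called lower and 13.4% higher. Its 3 calls were 1 small and 2 large subunit genes that are not paralogs, so Rpl3l was not among them. Without translocation tumour 5, 29 were called lower, where 16.2% of all genes were, and 40 (18.7%) once translocation tumours 2 and 5 and Rosa26 tumour 4 were left out. The median was -1.16 in both.

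On the TMM scale, muscle was above every tumour in 4 members, Rpl3l, Rpl4, Rplp0 and Rps27, where 19.6% of all genes were. Leaving aside translocation tumour 5, muscle was above every tumour in 61 of the 82, where 24.7% of all genes were. These ranks and the calls below depend on that scale, whose factor on the library total was 0.409 in muscle and 0.771 to 1.26 in tumours. By total counts the rank of Rps27 did not hold, with 6575 of 25.0 M counts in muscle and 5680 of 9.01 M in translocation tumour 1. Beside its tumour values above, Rplp0 had 2091 CPM in muscle, a log2 fold change of -1.52 with an SE of 0.57 (edgeR adjusted p = 0.0899). Without tumour 5 it was called lower at -1.71 (edgeR adjusted p = 0.0139). Rps27, a zinc finger protein of the small subunit, had 545, 365, 208, 347 and 611 CPM in translocation tumours, 50.4 to 229 CPM with a median of 109 in Rosa26 tumours, and 642 CPM in muscle. Rpl4, a protein of the exit tunnel named here for that count, had 514, 356, 522, 528 and 2009 CPM in translocation tumours, 397 to 692 CPM in Rosa26 tumours and 2226 CPM in muscle. Between genotypes Rpl4 had the smallest log2 fold change of the members at 0.62, which was -0.10 without tumour 5. Over muscle Rpl4 had -1.79 (edgeR adjusted p = 0.0854), and was called lower at -2.15 without tumour 5 (edgeR adjusted p = 0.00162).

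Taken alone, translocation tumours had 1 member called lower than muscle, where 8.46% of all genes were, with a median log2 fold change of -0.24. Rosa26 tumours had 9, where 10.5% were, with a median of -1.55. Both comparisons use the same muscle library. Translocation tumours alone include tumour 5, and no such fit was run without it. The median log2 CPM of the 80 genes was 9.48 in tumour 5, 7.44 to 8.20 in the other translocation tumours and 8.64 in muscle. Of the stalk proteins, Rplp0 had a log2 fold change of -1.03 in translocation tumours over muscle, and passed at -2.01 in Rosa26 tumours over muscle (edgeR adjusted p = 0.0364).

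**Figure D5:**
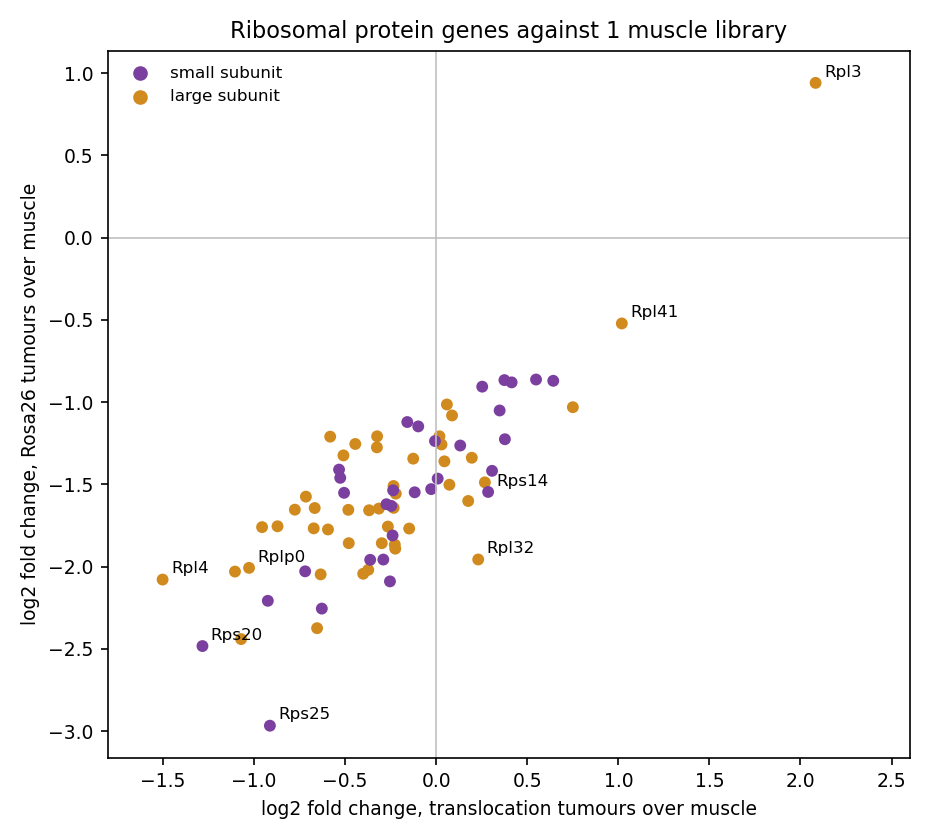
Log2 fold change of the 77 ribosomal protein genes that are not paralogs, translocation tumours over muscle (horizontal axis) and Rosa26 tumours over muscle (vertical axis), TMM scale. The muscle library is shared by both axes. Most genes lie below 0 on both axes, with medians over all 82 tested genes of -0.24 for translocation and -1.55 for Rosa26 tumours, and Rpl3 lies above 0 on both. Scaled by total counts the median for all tumours is 0.49.

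The other translation genes, a list of 25, showed how far the pattern went beyond ribosomal proteins. Between genotypes 21 of the 25 had a positive log2 fold change, against 53.2% of all genes. Their median was 0.98, or 0.37 without translocation tumour 5. None was called higher by edgeR, where 1.14% of all genes were, and 1 fell, where 1.56% of all genes did. This was Larp1, the regulator of terminal oligopyrimidine mRNAs. It had 58.7, 84.9, 62.4, 62.0 and 93.0 CPM in translocation tumours 1 to 5, and 114 to 250.2 CPM in Rosa26 tumours, so that the groups did not overlap. Its log2 fold change was -1.13 with an SE of 0.27, and its edgeR adjusted p was 0.0498, or 0.0334 without tumour 5. It kept its call in 2 of the 11 fits that left out 1 tumour.

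Fau and Rack1, which lie outside the symbol rule, had values close to the members' median of 1.38 when all tumours were used. The log2 fold changes were 1.57 for Fau, a fusion that yields Rps30, and 1.38 for Rack1, a small subunit scaffold (edgeR adjusted p 0.0603 and 0.0898). Without tumour 5 the members' median was 0.84, and Fau lay above it at 1.48 while Rack1 had 0.80. Npm1, a nucleolar chaperone of ribosome assembly, had 2050 CPM in translocation tumour 5, against 149.7 to 216 CPM in the other translocation tumours and 90.5 to 255 CPM in Rosa26 tumours. It differed by 1.59 between genotypes on the log2 scale, and by 0.004 without that tumour.

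Over muscle, 6 of the 25 were called lower and none higher on the TMM scale, where 11.4% of all genes were called lower. Without translocation tumour 5, 13 were, where 16.2% of all genes were. The 6 were Eef1a2, Eef2, Eif3f, Eif4b, Larp1 and Tpt1. Eef1a2, the elongation factor form of muscle and neurons, had 0.0960 to 13.1 CPM in translocation tumours, 0.700 to 203 CPM in Rosa26 tumours with the highest in Rosa26 tumour 1, and 1774 CPM in muscle. Eef2, which moves the ribosome along the mRNA, had 765 to 1714 CPM in translocation tumours, 911 to 2106 CPM in Rosa26 tumours and 5777 CPM in muscle. Scaled by total counts, 1 was called lower and 1 higher, where 582 of all 22184 genes were called lower and 3508 higher.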

How the data were processed

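The deposited table held raw counts per Ensembl gene, 1 column per library and not normalized, from RNA depleted of ribosomal RNA and made into libraries with a stranded kit, per the labels' protocols. Per the submitters' processing notes, cutadapt, STAR 2.7.5a, featureCounts, RSEM, DESeq2 and the build mm10 were used. The annotation release, the strand setting and the treatment of multi-mapping reads were not stated there or in the labels, so members may share reads with each other and with their 298 pseudogene rows, whose counts came to 0.664% to 0.916% of the members' counts. Symbols, positions and lengths came from GENCODE M21 (55536 of 55536 identifiers matched) and promoters from RefSeq.

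Genotypes were compared on the 11 tumours with edgeR 4.0.16 in R 4.3.3 (filterByExpr at 10 counts, then TMM, robust quasi-likelihood tests, Benjamini-Hochberg over 17021 genes). The SE of a log2 fold change is its size over the square root of the F statistic. Tumours were set over muscle in a fit of 12 libraries (22184 genes). The scripts were tested on simulated data. Library totals were 2.96 to 25.0 M counts, and intervals cover counting error only. Alternatives were other scalings and filters, pseudogene reads added, DESeq2 1.42.0, limma voom with quality weights (limma 3.58.1), muscle kept in, libraries of like titles summed, a sex covariate and libraries left out. Genes were named by role, by call, by steadiness and by abundance, and beyond these where a count of overlaps named them. A few genes that enter the counts and medians are not reported here by name. The members, the lists and the tests were chosen with earlier results of these data known.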

Additional observations from a re-analysis of the deposited data

Results flagged for a closer look

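In 60 groups of 5 or 6 tumours, 29 had a highest sample whose gap to the next was large beside the whole range of the group. Chance gives about 1 in 20 for normally distributed values. CPM was used without a log, so that rate is only a rough guide here. The groups share libraries, so the flags are not independent.

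Translocation tumour 5 was the distant sample in 16. Its share of counts in the 83 genes was 7.34%. In CPM it had 557 for Rpl11, 492 for Rpl22, 299 for Rpl22l1, 1606 for Rpl3, 2779 for Rpl32, 274 for Rpl36a, 388 for Rpl37a and 2007 for Rpl7. It also had 245 for Rpl7l1, 1947 for Rplp0, 376 for Rps16, 1275 for Rps24, 989 for Rps27a, 217 for Rps27l and 1138 for Rps4x. Each was above the other 4 translocation tumours.

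Rosa26 tumour 2 was the distant sample in 11, again the highest of its group. In CPM it had 228 for Rpl11, 237 for Rpl13a, 581 for Rpl3, 144 for Rpl37a, 704 for Rpl41, 421 for Rpl5, 882 for Rplp0, 590.2 for Rplp1, 259 for Rplp2, 793 for Rps14 and 243 for Rps7. Without it, 15 members were called higher between genotypes, where 1.47% of all genes were.

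Rpl3l had a distant sample in both groups, at 1.31 CPM in translocation tumour 2, which is 3 counts, and at 46.1 CPM in Rosa26 tumour 1, which is 797 counts. Skeletal muscle markers summed to 7617 and 85190 CPM there, the highest of each group.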

How the results depend on the processing

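Between genotypes, the 5 members called higher became 0 by total counts, 0 when scaled on the members, 9 with TMM without ribosomal RNA rows, 3 with no filter, 56 with the DESeq2 Wald test, 34 with limma voom and quality weights, 1 with muscle kept in, 0 with libraries of like titles summed, 77 with a sex covariate, and 0 without translocation tumours 2 and 5 and Rosa26 tumour 4. Leaving out 1 tumour gave 0 to 15 calls: 0 without translocation tumour 1 or any of Rosa26 tumours 3, 4, 5 and 6, 1 without Rosa26 tumour 1, 2 without translocation tumour 5, 11 without translocation tumour 3 and 15 without Rosa26 tumour 2. Over all genes, 270 of 17021 were called higher with TMM without ribosomal RNA rows and 45 when scaled on the members. With no filter 92 of 36256 were called higher, and with muscle kept in 115 of 22184. The fits that left out 1 tumour called 15 to 293 of all genes higher. These were 216 of 17379 without translocation tumour 3 and 121 of 16679 without Rosa26 tumour 1. The cause was not tested. No alternative called a member lower. The median fold change was negative only when scaled on the members (-0.0069). That scaling sets the members' centre near 0 by construction, so that many members must turn. It turned 41 of the 80, among them Rplp1 (-0.46), Rpl10 (-0.42), Rplp2 (-0.30), Rpl22 (-0.52), Rps4x (-0.52), Rpl7 (-0.17), Rpl5 (-0.051), Rpl3 (-0.20), Rpl7l1 (-0.46), Rplp0 (-0.33) and Rpl36a (-0.45). The median of all genes was -0.04 by total counts and 0.07 by TMM.

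Over muscle, members called lower became 2 with DESeq2 size factors, 3 with the Wald test, 9 for Rosa26 tumours alone and 40 without translocation tumours 2 and 5 and Rosa26 tumour 4 (chosen after seeing the data). Leaving out 1 tumour gave 1 to 29, with 29 without translocation tumour 5. Over all genes these fits called 2076 to 3475 lower, with the most, 3475 of 21511, without translocation tumour 5. DESeq2 size factors called 2857 of all 22184 genes lower. Total counts called 1 higher, where 3508 of all 22184 genes were. The median was 0.49 by total counts, 0.026 scaled on the members and -0.24 for translocation tumours alone. Of the 82 members, 4 were positive by TMM, 71 by total counts, 45 scaled on the members and 27 for translocation tumours alone. Many named genes turned, and only examples are given. By total counts these were Rplp1 (0.45), Rplp2 (0.22), Rpl22 (0.10), Rpl22l1 (1.17), Rpl10 (0.59), Rpl11 (0.78) and Rpl13a (1.24). Scaled on the members they were Rplp1 (0.11), Rpl22l1 (0.60), Rpl10 (0.14), Rpl11 (0.31) and Rpl13a (0.84). For translocation tumours alone they were Rpl22l1 (0.59), Rpl13a (0.75) and Rpl32 (0.23). The members' share in muscle was 1.62% without ribosomal RNA rows and 1.62% with pseudogene reads. No paired analysis was possible because the replicate numbers only follow accession order and only 1 pair of libraries from different groups shares a number in its titles. Rpl39l, Rpl3l and Rpl24 had under 20 counts in some tumours, where counting error is large.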
